A study of Mus musculus with 24 samples.

Results

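Cholesterol synthesis and transport were followed through 8 genes in mouse lungs challenged with lipopolysaccharide (LPS), a bacterial cell wall component that causes acute lung inflammation. The genes were taken by symbol from the deposited expression table: 5 enzymes of synthesis (Hmgcs1, Idi1, Fdps, Sqle and Lss), the regulator Insig1 and the 2 exporters Abca1 and Abcg1. They are 8 of the 78298 genes in the table, and all 8 were among the 17823 genes tested.

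Cells make cholesterol from acetyl units through mevalonate, farnesyl diphosphate, squalene and lanosterol. When sterol in the endoplasmic reticulum is low, Scap escorts the transcription factor SREBP2 to the Golgi apparatus. Proteases cut SREBP2 there and it then raises the synthesis genes, whereas INSIG proteins hold it back when sterol is plentiful. Oxysterols activate the nuclear receptors LXR alpha and LXR beta, which raise Abca1 and Abcg1, and in the lung alveolar macrophages and type II cells use these routes to clear and to build the lipids of surfactant.

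Wild-type C57BL/6 mice, labelled male and aged 7 weeks, were on an AIN-76A diet. In 5 mice given LPS alone, LPS was instilled into the trachea at 5 mg/kg on day 29. In 3 further groups of 5 mice the same challenge followed 28 days of an aqueous extract of Artemisia argyi (AEAA) in the drinking water, at 0.5 mg/mL (low dose), 1 mg/mL (mid dose) or 1.5 mg/mL (high dose). The 4 control mice received saline according to the treatment protocol, although their own sample label names the LPS challenge, and no group received the extract without LPS. Lungs were taken after 8 h and profiled in bulk, so that fewer cells of a type and less RNA per cell cannot be told apart. Each library is a separate labelled biological replicate.

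Values are TPM, an abundance that is corrected for transcript length and adds up to the same total in every library. The table holds no read counts, so that depth is unknown. Genes that gain or lose a large share of that total move all others: 6 airway epithelial markers summed to 28606 to 98833 TPM in the 20 challenged lungs and to 241265 to 366767 TPM in control lungs. For LPS over control, the log2 fold changes of all tested genes had a median of 0.55. Each fit is therefore given also after dividing every library by its median-of-ratios factor (0.648 to 1.28), which brought that median to 0.02. These are called scaled values. In both fits a difference was called at an adjusted p under 0.05 with limma on log2(TPM + 1), and fold changes are on that scale.

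The challenged lungs were not uniform in inflammation. Cxcl2, a neutrophil chemokine, lay between 0.09 and 1.37 TPM in 7 challenged libraries (LPS replicates 2 and 4, low dose replicate 1, and replicates 1 and 4 at both the mid and the high dose), against 0.06 to 0.27 TPM in control. The other 13 challenged libraries had 45.12 to 454.09 TPM. The 10 neutrophil markers summed to 613.72 to 12666.9 TPM in LPS lungs, against 138.4 to 202.86 TPM in control lungs, as deposited. After scaling the groups did not overlap either, with 488.253 to 11312.2 in LPS lungs and 209.956 to 250.603 in control lungs. The part of neutrophils in the levels of the 8 genes was not tested. This grouping by Cxcl2 was made with the values in view. Where a call of the 8 genes or, as deposited, of a named pathway gene changed without the 7 libraries, the value without them is given.

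Before scaling, 4 of the 8 genes rose with LPS alone (Sqle, Hmgcs1, Lss and Abcg1), beside 56.2% of all genes. None of the 8 fell, beside 1.86% of all genes. The median log2 fold change of the 8 genes was 0.53. After scaling, Sqle rose (beside 14.2% of all genes) and Abca1 fell (beside 13.7%), and the median of the 8 was −0.10. The calls for Hmgcs1, Lss and Abcg1 thus depended on the scaling, while Abca1 was the member with the most negative fold change in both.

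**Figure D1:**
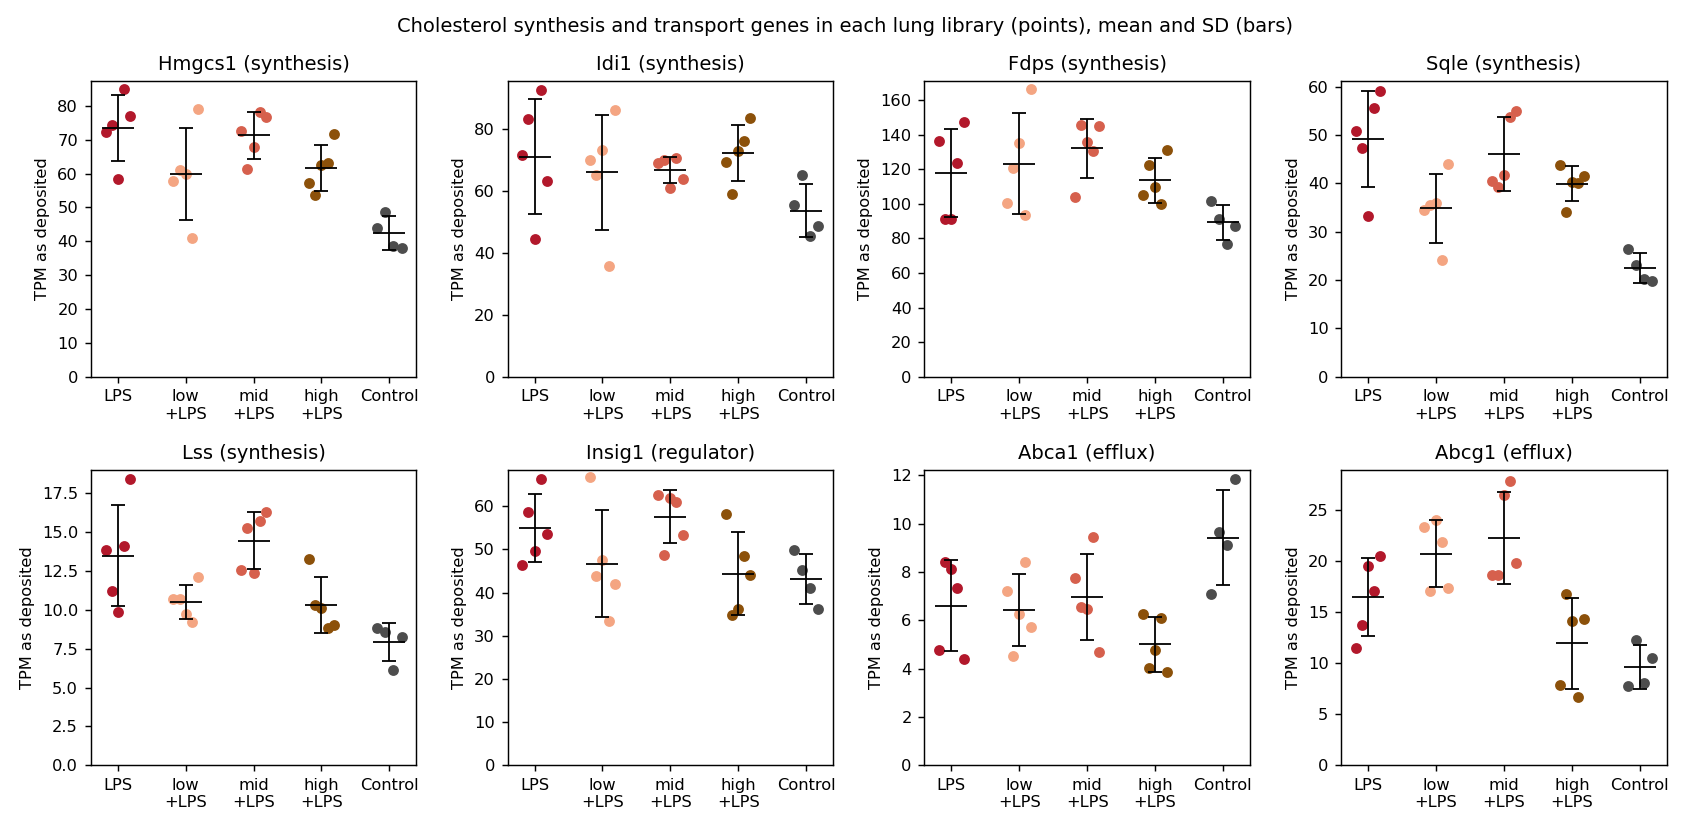
Abundance of each gene in TPM as deposited (vertical axes from 0) in the 24 lung libraries by group. Points are libraries, and the horizontal mark and bar are the mean and SD; the 5 LPS libraries lie above the 4 control libraries for Hmgcs1, Sqle and Lss.

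Hmgcs1 encodes the cytosolic HMG-CoA synthase, an early enzyme on the way to mevalonate. It had 72.18, 74.43, 58.33, 84.94 and 77.14 TPM in LPS lungs, against 43.87, 48.74, 38.56 and 38.13 TPM in control lungs. As deposited, all LPS libraries were above all control libraries, as for 49.7% of all genes, with a log2 fold change of 0.78 ± 0.14 (SE; limma, adjusted p = 6.69e-05). After scaling the difference was 0.13 ± 0.15 (adjusted p = 0.516) and the groups overlapped.

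The promoter of Hmgcs1 is shown because it was the only one at hand with the letters searched for the sterol regulatory element, which SREBP binds. Other forms of the element were not searched, so the other promoters cannot be said to lack it. RefSeq promoters on GRCm38.p6 were matched for 5 of the 8 genes (Hmgcs1, Idi1, Lss, Insig1 and Abca1). These 250 bases lie directly before the start of Hmgcs1 at chr13:119690101-119690350 on the plus strand, with the sterol regulatory element in capitals.
Hmgcs1: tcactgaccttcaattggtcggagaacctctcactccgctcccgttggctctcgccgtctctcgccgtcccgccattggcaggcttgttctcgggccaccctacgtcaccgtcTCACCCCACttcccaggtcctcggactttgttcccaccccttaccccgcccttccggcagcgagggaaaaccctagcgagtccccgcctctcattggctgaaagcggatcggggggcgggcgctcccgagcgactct
The capitals TCACCCCAC lie 137 to 129 bases before the start and match the searched letters TCACNCCAC. Searched on both strands, these letters were in 1.05% of 32851 mouse promoters of that length, and among the 5 genes only in Hmgcs1. The letters CCAAT, bound by NF-Y, were in Hmgcs1, Idi1, Lss and Insig1 and in 33.8% of all promoters. GGGCGG, bound by Sp1, was in all 5 and in 32.7% of all. A match describes the letters and is not a measured binding site.

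Idi1, the isomerase that readies isopentenyl units for condensation, had 71.65, 83.03, 44.53, 92.55 and 63.14 TPM in LPS lungs, against 55.28, 65.02, 45.42 and 48.60 TPM in control lungs. LPS replicate 3 was below every control library, and the log2 fold change of 0.37 ± 0.20 did not pass (limma, adjusted p = 0.122). Without that library it was 0.52 and passed (limma, adjusted p = 0.023). After scaling it was −0.28 ± 0.20 (limma, adjusted p = 0.302). LPS replicate 3 also stood apart in adipose markers, whose 7 genes summed to 1299.11 TPM there, to 118.18 to 199.3 TPM in the other LPS lungs and to 99.56 to 287.54 TPM in control lungs. LPS replicates 1 and 3 also held skeletal muscle markers, 4078.2 and 2537.83 TPM in sum, against 15.48 to 32.14 TPM in control lungs. The part of these tissues in the values was not tested.

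Fdps makes farnesyl diphosphate, the branch point to sterols and to protein prenylation. It was the most abundant of the 8 genes in TPM, with 136.35, 91.51, 91.45, 123.57 and 147.19 TPM in LPS lungs, against 101.64, 91.32, 76.71 and 87.48 TPM in control lungs. The groups overlapped, with LPS replicates 2 and 3 inside the control range. The log2 fold change was 0.38 ± 0.16 and just missed the threshold (limma, adjusted p = 0.0536). It passed when LPS replicate 2 (0.46), LPS replicate 3 (0.46) or control replicate 1 (0.44) was left out, and without the 7 low-Cxcl2 libraries (0.46; limma, adjusted p = 0.0357). After scaling it was −0.27 ± 0.20.

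Sqle, squalene epoxidase, carries out the first oxygen-requiring step of sterol synthesis and is one of its rate-limiting enzymes. It had 50.92, 47.25, 33.32, 55.48 and 59.08 TPM in LPS lungs, against 26.49, 23.07, 20.28 and 19.73 TPM in control lungs. As deposited the groups did not overlap, like those of 49.7% of all genes in that direction, and the log2 fold change of 1.09 ± 0.16 was the largest of the 8 in LPS lungs (limma, adjusted p = 6.66e-06). After scaling Sqle was the only synthesis gene of the 5 to pass, at 0.45 ± 0.17 (limma, adjusted p = 0.0474), with overlapping groups. That scaled call was lost when control replicate 2, 3 or 4 or LPS replicate 1, 4 or 5 was left out (0.37 to 0.43, adjusted p between 0.0796 and 0.134), and when the 7 low-Cxcl2 libraries were left out together (0.47, adjusted p = 0.0905).

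Lss, lanosterol synthase, closes the sterol rings. It had 13.83, 11.20, 9.88, 14.09 and 18.37 TPM in LPS lungs, against 8.84, 8.55, 6.15 and 8.24 TPM in control lungs. All LPS libraries were above control as deposited, again as for 49.7% of all genes, with a log2 fold change of 0.68 ± 0.15 (limma, adjusted p = 0.000513). It was 0.08 ± 0.15 after scaling (adjusted p = 0.715).

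Insig1 encodes a membrane protein that retains Scap in the endoplasmic reticulum when sterol is plentiful, and it is itself a target of SREBP. It had 46.46, 58.69, 49.72, 66.32 and 53.54 TPM in LPS lungs, against 49.82, 45.28, 41.01 and 36.30 TPM in control lungs. The groups overlapped. Its log2 fold change was 0.34 ± 0.17 as deposited (limma, adjusted p = 0.0832) and −0.30 ± 0.15 after scaling (limma, adjusted p = 0.125), so that its direction turned with the scaling without passing in either. Within libraries, Sqle over Insig1 was 0.67 to 1.10 in LPS lungs, against 0.495 to 0.544 in control lungs. A ratio within a library does not depend on the scaling, and this one did not overlap between LPS and control lungs. It was chosen after the values were seen, and the share of gene pairs that separate likewise was not counted. Low dose replicate 1, at 0.516, lay inside the control range.

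Abca1 moves cholesterol and phospholipid out of the cell onto lipid-poor apolipoproteins and is a classical LXR target. It had 4.76, 8.40, 8.13, 7.35 and 4.42 TPM in LPS lungs, against 7.08, 9.65, 9.14 and 11.84 TPM in control lungs. LPS replicates 1 and 5 were below every control library, and the other 3 lay inside the control range. The log2 fold change of −0.47 ± 0.21 missed the threshold as deposited (limma, adjusted p = 0.054), and passed when control replicate 1 (−0.59), LPS replicate 2 (−0.56) or LPS replicate 3 (−0.55) was left out, and without the 7 low-Cxcl2 libraries (−0.64).

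The scaled values of Abca1 were 4.40, 6.54, 7.26, 5.85 and 3.81 in LPS lungs, against 10.9, 11.9, 11.9 and 15.3 in control lungs. No library overlapped, as for 13.1% of all genes in that direction, and the log2 fold change was −1.06 ± 0.17 (limma, adjusted p = 0.000225). It stayed between −1.15 and −0.95 with each library left out in turn, and was −1.16 without the 7 low-Cxcl2 libraries. Type II alveolar markers were also lower after scaling. Their 10 genes summed to 17434.6 to 32469.4 scaled TPM in LPS lungs, against 52994.6 to 59678.3 in control lungs. As deposited the groups overlapped, with 18869.9 to 40813 TPM in LPS lungs and 34357.1 to 48308.7 TPM in control lungs. None of the markers was at 0 in every library of a group. Their part in the fall of Abca1 was not tested.

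The Abca1 promoter is shown because Abca1 is a textbook target of LXR. The 250 bases lie at chr4:53159896-53160145 on the minus strand (RefSeq, GRCm38.p6) and are written in the direction of the gene. Capitals mark the stretch most like the direct repeat read by LXR.
Abca1: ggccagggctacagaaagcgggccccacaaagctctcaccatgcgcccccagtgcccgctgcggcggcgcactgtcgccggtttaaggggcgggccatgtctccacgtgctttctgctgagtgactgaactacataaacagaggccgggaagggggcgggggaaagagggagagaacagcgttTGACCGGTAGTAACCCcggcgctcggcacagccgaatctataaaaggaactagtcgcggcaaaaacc
The LXR element was searched on both strands as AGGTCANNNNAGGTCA. With up to 2 mismatches it was in 2.57% of all promoters and in none of the 5. The limit was widened to 3 mismatches after that was seen. The stretch in capitals, 67 to 52 bases before the start and read on the opposite strand, then matched, as did stretches in Hmgcs1 and Insig1 and in 18.5% of all promoters.

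Abcg1 loads cholesterol onto high-density lipoprotein and is the exporter that alveolar macrophages depend on. It had 11.53, 13.75, 19.55, 17.02 and 20.53 TPM in LPS lungs, against 7.80, 12.29, 8.03 and 10.49 TPM in control lungs. Only LPS replicate 1 fell inside the control range, and Abcg1 rose as deposited by a log2 fold change of 0.71 ± 0.23 (limma, adjusted p = 0.0104). After scaling the difference was 0.10 ± 0.23 (limma, adjusted p = 0.764). Its estimate in LPS lungs was opposite in sign to that of Abca1 on both scales, although both are LXR targets. Only Abcg1 passed as deposited, however, and only Abca1 after scaling. The 10 alveolar macrophage markers summed to 411.15 to 2304.49 TPM in LPS lungs, against 291.18 to 378.80 TPM in control lungs, all as deposited. The highest sum was in LPS replicate 3, the library that also stood apart in adipose markers (1299.11 TPM). The other LPS lungs had macrophage marker sums of 411.15 to 1154.65 TPM. The part of adipose tissue in the sum of LPS replicate 3 was not tested. After scaling the groups overlapped, with 320.26 to 2058.02 in LPS lungs and 434.505 to 487.967 in control lungs. None of the markers was at 0 throughout a group. Their part in the level of Abcg1 was not tested.

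Ratios within a library show the same split without any choice of scaling. Abcg1 over Abca1, in TPM, was 2.42, 1.64, 2.40, 2.32 and 4.64 in LPS lungs, against 1.10, 1.27, 0.879 and 0.886 in control lungs. Sqle over Abca1 was 10.7, 5.62, 4.10, 7.55 and 13.4 in LPS lungs, against 3.74, 2.39, 2.22 and 1.67 in control lungs. Every LPS library was above every control library in both ratios. The ratios were chosen after the values of the genes were seen and are given with no test. The share of gene pairs that separate likewise was not counted.

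**Figure D2:**
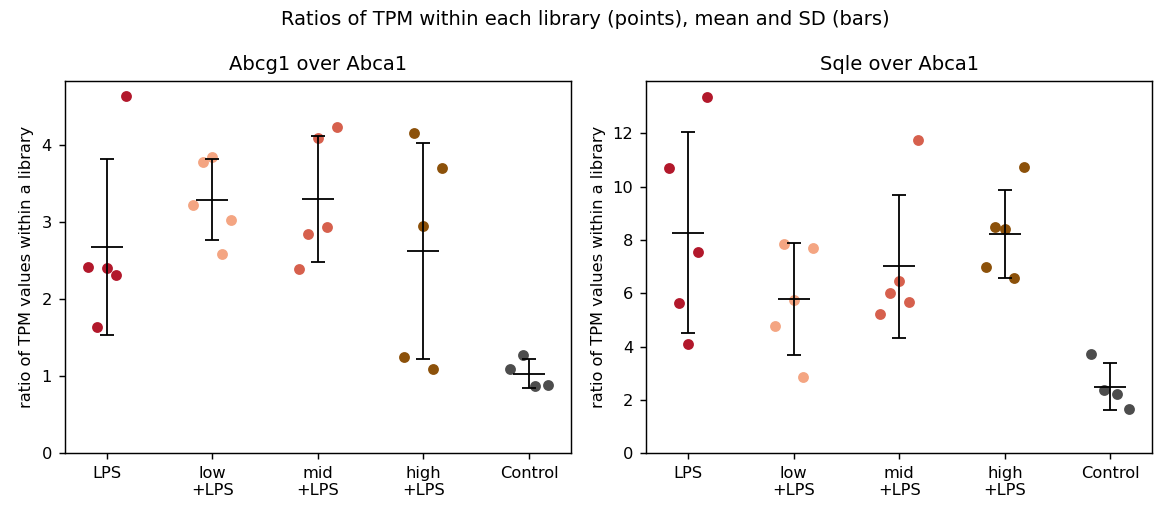
Abundance ratios within each library (vertical axes, no unit, from 0): Abcg1 over Abca1 and Sqle over Abca1, by group. Points are libraries and bars are mean and SD; control libraries lie between 0.879 and 1.27 in the first ratio, and the 2 high dose libraries at 1.09 and 1.25 are the only challenged ones in that range.

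With the extract, levels were set against LPS alone. Since no group received the extract without LPS, a changed response to LPS and an effect of the extract by itself cannot be told apart. As deposited, 1 of the 8 genes differed at the low dose: Sqle fell, beside 10.6% of all genes. None differed at the mid dose, where 0% of all genes did, and none at the high dose, beside 27.6%. Hmgcs1, Sqle and Lss had an unadjusted p under 0.05 at the low dose (limma), beside 5225 of the 17823 genes. None of the 8 had one at the mid dose, beside 625 genes, and Lss and Abcg1 did at the high dose, beside 7067. After scaling none of the 8 differed at any dose, beside 2.11%, 0% and 8.73% of all genes at the low, mid and high dose (limma). Abcg1 alone of the 8 then had an unadjusted p under 0.05, at the low and mid dose, beside 2826 and 532 of all genes (limma). None of the 8 had one at the high dose, beside 4177. The 3 comparisons share the LPS libraries.

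Sqle at the low dose had 34.43, 35.45, 35.92, 24.18 and 44.08 TPM, against 50.92, 47.25, 33.32, 55.48 and 59.08 TPM in LPS lungs. The groups overlapped only through LPS replicate 3, which lay below every low dose library but that with 24.18 TPM. The log2 fold change was −0.49 ± 0.15 (limma, adjusted p = 0.0442). The call lay close to the threshold and was lost in 8 of 10 fits with 1 library left out (−0.50 to −0.37; limma, adjusted p up to 0.114). The exceptions were the fits without LPS replicate 3 or low dose replicate 5. The call was also lost without the 7 low-Cxcl2 libraries (−0.43; limma, adjusted p = 0.159) and after scaling (−0.26, 95% interval −0.59 to 0.06).

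At the mid dose Sqle had 40.52, 39.32, 41.68, 53.63 and 54.94 TPM and its log2 difference from LPS lungs was −0.08 (95% interval −0.40 to 0.23). At the high dose it had 43.75, 34.13, 40.23, 40.08 and 41.55 TPM and the difference was −0.27 (95% interval −0.59 to 0.04). Both overlapped the LPS libraries. Leaving out LPS replicate 3 brought the high dose difference to −0.40, which passed (limma, adjusted p = 0.0409). After scaling the difference was 0.04 at the high dose (95% interval −0.28 to 0.37), with its direction turned.

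Hmgcs1 followed the same order of means as Sqle, with 73.4 TPM in LPS lungs and 59.8, 71.3 and 61.7 TPM at the low, mid and high dose. Lss had 13.5 TPM in LPS lungs and 10.5, 14.4 and 10.3 TPM at the 3 doses. Its log2 difference at the high dose was −0.34 ± 0.14 (limma, adjusted p = 0.0729), and it passed without LPS replicate 3 (−0.44) or high dose replicate 1 (−0.43). After scaling it was −0.04 ± 0.14. Over the 3 doses together Lss passed the test for any difference from LPS (limma, adjusted p = 0.0377), but not in 11 of 20 fits with 1 library left out (adjusted p up to 0.0764).

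Idi1 and Fdps passed at no dose. Idi1 averaged 71.0 TPM in LPS lungs and 66.0, 66.8 and 72.1 TPM at the low, mid and high dose, and Fdps averaged 118 TPM in LPS lungs and 123, 132 and 114 TPM. Their largest log2 differences from LPS as deposited were −0.12 (95% interval −0.51 to 0.28) for Idi1 at the low dose and 0.18 (95% interval −0.14 to 0.50) for Fdps at the mid dose. After scaling both were largest at the high dose, at 0.38 (95% interval −0.02 to 0.77) for Idi1 and 0.29 (95% interval −0.10 to 0.68) for Fdps. Insig1 averaged 54.9 TPM in LPS lungs and 46.6, 57.5 and 44.3 TPM at the 3 doses, with a log2 difference of −0.32 ± 0.16 at the high dose (limma, adjusted p = 0.134). That difference passed without high dose replicate 1 (−0.42), which had the highest Insig1 of its group at 58.26 TPM. After scaling the high dose difference was 0.00061 (95% interval −0.29 to 0.29).

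Abca1 had 7.23, 4.51, 6.25, 8.44 and 5.73 TPM at the low dose and 7.77, 6.54, 6.46, 9.47 and 4.68 TPM at the mid dose. At the high dose it had 6.28, 4.03, 4.79, 6.10 and 3.87 TPM. All 3 groups overlapped the LPS libraries. The log2 differences from LPS were −0.02, 0.08 and −0.32 at the low, mid and high dose as deposited, and 0.18, 0.12 and −0.05 after scaling, with 95% intervals that all held 0.

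Abcg1 showed the widest spread over the doses. It had 23.29, 17.06, 24.02, 21.87 and 17.40 TPM at the low dose and 18.61, 18.61, 26.45, 27.87 and 19.84 TPM at the mid dose. At the high dose it had 7.85, 16.77, 14.12, 6.66 and 14.33 TPM. As deposited, high dose libraries lay below those of the low and of the mid dose without overlap, as for 1.21% and 7.86% of all genes, while each group overlapped LPS lungs. After scaling the high dose overlapped both. The log2 differences from LPS were 0.33 ± 0.21, 0.42 ± 0.21 and −0.48 ± 0.21 at the low, mid and high dose (limma, adjusted p = 0.309, 1 and 0.0964). After scaling they were 0.54, 0.47 and −0.17.

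Over the 3 doses together Abcg1 and Lss were the 2 of the 8 genes that passed the test for any difference from LPS, beside 22.2% of all genes, with an adjusted p of 0.0132 for Abcg1 (limma). After scaling none of the 8 passed, beside 7.07% of all genes, and Abcg1 had an adjusted p of 0.0802. Without the 7 low-Cxcl2 libraries the adjusted p was 0.24 for Abcg1 and 0.068 for Lss as deposited, and Insig1 passed instead (limma, adjusted p = 0.039). High dose replicates 1 and 4, with 0.44 and 0.37 TPM of Cxcl2, had 7.85 and 6.66 TPM of Abcg1, against 14.12 to 16.77 TPM in the other 3 libraries of the group. The alveolar macrophage markers summed to 400.13 and 581.72 TPM in those 2 libraries and to 982.87 to 1373.67 TPM in the other 3. The neutrophil markers summed to 534.32 and 392.05 TPM in those 2 and to 6140.59 to 11932.2 TPM in the other 3. Whether any of these accounts for the lower Abcg1 was not tested. At the low and mid dose the libraries with low Cxcl2 were not low in Abcg1, with 23.29 TPM in low dose replicate 1 and 18.61 and 27.87 TPM in mid dose replicates 1 and 4.

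A linear trend over 0, 0.5, 1 and 1.5 mg/mL in the challenged lungs was tested for all genes. None of the 8 passed as deposited, beside 8.4% of all genes, and none after scaling, beside 1.53% (limma). None had an unadjusted p under 0.05 in either. Abcg1 had the steepest slope of the 8 as deposited, −0.27 log2 units per mg/mL (95% interval −0.55 to 0.01). Its means did not fall in order of dose, with 16.5 TPM in LPS lungs and 20.7, 22.3 and 11.9 TPM at the low, mid and high dose. In none of the 8 genes did neighbouring groups in the order of the 5 group means separate without overlap.

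Against control, 5 of the 8 genes differed at the low dose as deposited, beside 46.4% of all genes: Hmgcs1, Fdps, Sqle, Lss and Abcg1 rose. At the mid dose 6 rose, beside 54.8%, namely the same 5 and Insig1. At the high dose 3 differed, beside 39%: Hmgcs1 (0.53) and Sqle (0.81) rose, and Abca1 (−0.79) fell with no overlap, as for 0.685% of all genes. The 4 comparisons with control share the control libraries. The calls of Fdps and Lss at the low dose were lost in 6 and 8 of 9 fits with 1 library left out, and that of Insig1 at the mid dose in 6 of 9. Without the 7 low-Cxcl2 libraries the call of Lss at the low dose was lost too (0.36, adjusted p = 0.0677), 5 genes differed at the high dose, with Fdps (0.44) and Abcg1 (0.61) joining, and Abca1 fell at all 3 doses as deposited (−0.54, −0.59 and −0.98).

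After scaling, Abca1 fell against control at every dose, and few other members differed. At the low dose Abca1 (−0.88) and Abcg1 (0.65) differed, beside 25.5% of all genes. At the mid dose Abca1 (−0.94) differed, beside 28.1%, and at the high dose Abca1 (−1.11) and Sqle (0.49), beside 18.8%. The adjusted p of Abca1 was 0.00208, 0.000637 and 0.000556 at the low, mid and high dose (limma).

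Scaled Abca1 averaged 5.57 ± 1.44 in LPS lungs and 6.37 ± 1.34, 6.11 ± 1.26 and 5.27 ± 0.81 at the 3 doses (SD, n = 5 each), against 12.5 ± 1.89 in control lungs (n = 4). All 20 challenged libraries lay below all 4 control libraries, with 3.81 to 8.39 against 10.9 to 15.3. No overlap in that direction was found for 13.1%, 14.6% and 6.9% of all genes at the low, mid and high dose. The call of Abca1 held at every dose with each library left out in turn (log2 fold changes of −1.16 to −0.79) and without the 7 low-Cxcl2 libraries (−0.91, −1.08 and −1.23 at the low, mid and high dose). The scaled call of Abcg1 at the low dose was lost in all 9 fits with 1 library left out (0.56 to 0.73). That of Sqle at the high dose was lost without control replicate 2, 3 or 4 or high dose replicate 2, 3 or 5 (0.42 to 0.52), and also without the 7 libraries (0.52, adjusted p = 0.0556). Without those 7, scaled Abcg1 rose at the mid dose (0.58) and scaled Insig1 fell at the low and high dose (−0.45 and −0.41).

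**Figure D3:**
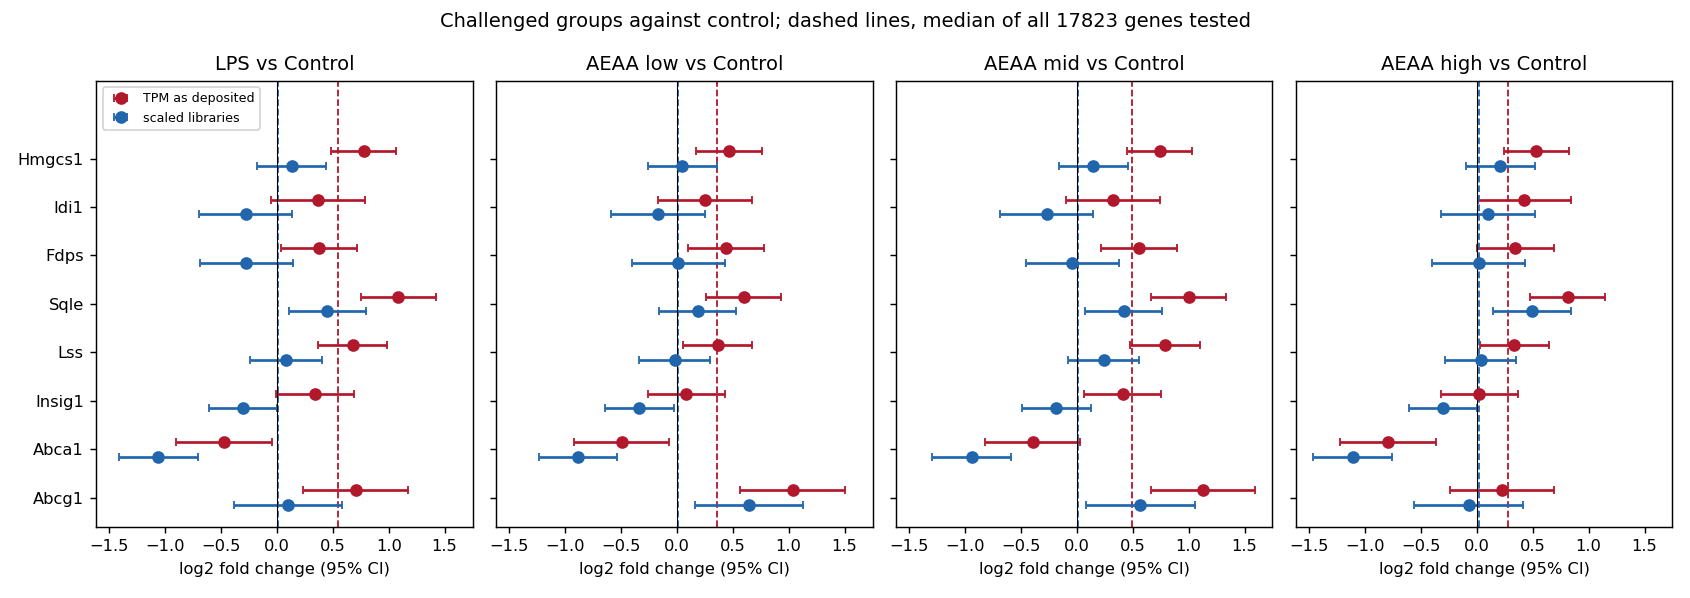
Log2 fold change of each gene against control with its 95% interval (horizontal axes) for LPS alone and the 3 doses, from TPM as deposited (red) and scaled libraries (blue). Dashed lines mark the median of all genes tested; Abca1 lies left of it in every panel on both scales, at −1.06 for LPS alone after scaling.

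Within the challenged groups Abca1 tended to be lower where Cxcl2 was high. In LPS lungs replicates 1 and 5, with 261.51 and 189.56 TPM of Cxcl2, had 4.76 and 4.42 TPM of Abca1, against 7.35 to 8.40 TPM in the other 3, of which replicate 3 had an intermediate 45.12 TPM of Cxcl2. In high dose lungs replicates 1 and 4, with low Cxcl2, had 6.28 and 6.10 TPM of Abca1, against 3.87 to 4.79 TPM in the other 3. In mid dose lungs replicates 1 and 4, with low Cxcl2, had 7.77 and 9.47 TPM, against 4.68 to 6.54 TPM in the other 3. The low dose broke the pattern, since replicate 4 had both a high Cxcl2 of 283.31 TPM and the highest Abca1 of its group at 8.44 TPM. The relation was noticed in the values and was not tested. The libraries with low Cxcl2 were still below control in scaled Abca1, at 5.81 to 7.48 against 10.9 to 15.3.

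The rest of the pathway was followed through 6 lists of genes. Their counts stand beside 56.2% of all genes higher and 1.86% lower in LPS lungs as deposited, and 14.2% higher and 13.7% lower after scaling. In LPS lungs 4 of 6 further genes between acetyl-CoA and squalene rose as deposited, and none fell, with a median log2 fold change of 0.60 beside 0.55 for all genes. They were led by Mvd (1.07), the decarboxylase that makes isopentenyl diphosphate, and Mvk (0.68), mevalonate kinase, followed by Ggps1 (0.61) and Fdft1 (0.60), the branch enzymes to geranylgeranyl diphosphate and to squalene. Mvd averaged 22.3 ± 6.29 TPM in LPS lungs (SD, n = 5) and 9.85 ± 1.36 TPM in control lungs (n = 4). The groups did not overlap as deposited, as for 49.7% of all genes in that direction. Endothelial and fibroblast markers were also higher as deposited. The 7 endothelial genes summed to 1706.96 to 2510.63 TPM in LPS lungs, against 791.64 to 1212.19 TPM in control lungs, and the 5 fibroblast genes to 397.15 to 718.24 TPM, against 235.58 to 303.44 TPM; both overlapped after scaling, none was at 0 throughout a group, and their part in the lists was not tested. After scaling none rose and 2 fell, Acat2 (−0.42) and Pmvk (−0.66), and the median was −0.03.

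Of 9 genes that turn lanosterol into cholesterol, 7 rose in LPS lungs as deposited, beside 56.2% of all genes, and none fell, with a median of 0.65. The largest were Hsd17b7 (1.07), Cyp51 (0.84), Sc5d (0.80) and Dhcr7 (0.80), all enzymes that act on the sterol nucleus. None passed after scaling, where the median was 0.04. Like those of Hmgcs1 and Lss, all 7 calls ended with the scaling.

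All 6 genes of SREBP control rose in LPS lungs as deposited, with a median of 1.02. Scap (1.16), Mbtps1 (1.12), Srebf2 (1.06) and Mbtps2 (0.99) were the largest, and these 4 also rose after scaling, by 0.54, 0.48, 0.41 and 0.42, where the median of the list was 0.42 and that of all genes 0.02. Scap escorts SREBP to the Golgi apparatus and the products of Mbtps1 and Mbtps2 are the proteases that cut it there. Srebf2, which encodes SREBP2 itself, averaged 91.1 ± 11.4 TPM in LPS lungs and 43.1 ± 4.16 TPM in control lungs.

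Of 12 genes of cholesterol uptake and movement inside the cell, 11 rose in LPS lungs as deposited, beside 56.2% of all genes, with a median of 0.95. They were led by Msr1 (2.56), Scarb1 (1.09), Lipa (1.09) and Lrp1 (1.05), which are a scavenger receptor, the receptor for high-density lipoprotein, lysosomal acid lipase and a large endocytic receptor. After scaling 4 rose, beside 14.2% of all genes: Scarb1 (0.45), Lipa (0.46), Stard3 (0.26) and Soat1 (0.41). Msr1 lay between 1.41 and 44.60 TPM in LPS lungs and between 0.61 and 0.87 TPM in control lungs. Its call (limma, adjusted p = 0.0498) was lost when any 1 of the 4 control libraries or LPS replicate 1, 3 or 5 was left out.

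Of 11 genes of LXR and efflux, 6 rose in LPS lungs as deposited and 1 fell, with a median of 0.48. Abca7 (1.44), a relative of Abca1, and Lpcat3 (1.30), a phospholipid-remodelling LXR target, were the largest, followed by the receptor genes Nr1h3 (1.06) and Nr1h2 (1.01). Apoc1, an apolipoprotein gene, was the one that fell (−0.99), with 49.1 ± 15.1 TPM in LPS lungs and 96.9 ± 24.1 TPM in control lungs. After scaling Abca7 (0.86), Lpcat3 (0.67) and Nr1h2 (0.36) rose, and Apoc1 (−1.63), Apoe (−0.76) and Mylip (−0.50) fell, as Abca1 did. After scaling, known LXR targets were thus called in both directions. Of 4 oxysterol enzymes tested, Cyp7b1 (1.24) and Hsd3b7 (0.82) rose as deposited and none passed after scaling. Cyp46a1 of that list was below the filter on low values and was not tested.

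**Figure D4:**
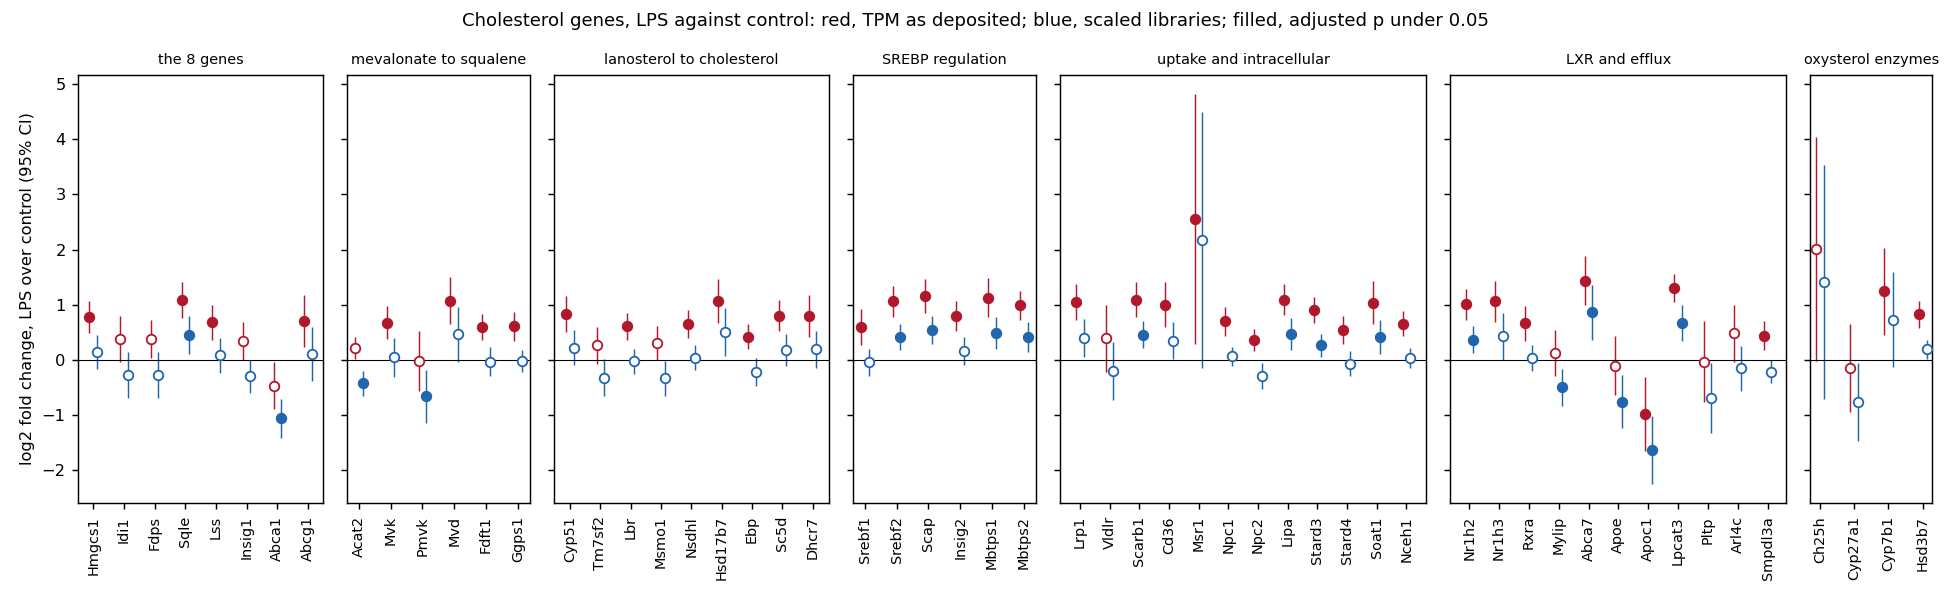
Log2 fold change of LPS over control (vertical axis, with 95% intervals) for the 8 genes and 6 further lists of cholesterol genes, as deposited (red) and scaled (blue), with filled points where the adjusted p was under 0.05. All 6 genes of SREBP control are filled in red and 4 of them in blue, whereas no gene from lanosterol to cholesterol is filled in blue.

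Against LPS alone, most calls in these lists were at the high dose, where 25.5% of all genes fell and 2.05% rose as deposited, and 3.07% fell and 5.66% rose after scaling. There 5 of the 6 genes of SREBP control fell against LPS as deposited (median −0.63, beside −0.27 for all genes): Mbtps1 (−0.83), Srebf1 (−0.80), Scap (−0.68), Srebf2 (−0.57) and Mbtps2 (−0.44). After scaling 3 fell: Mbtps1 (−0.51), Srebf1 (−0.49) and Scap (−0.37). Srebf1 encodes the SREBP of fatty acid synthesis and is also an LXR target. It averaged 29.2 ± 6.55 TPM at the high dose and 50.9 ± 4.74 TPM in LPS lungs, with no overlap, as for 9.47% of all genes in that direction.

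Of the 12 uptake genes, 8 fell at the high dose as deposited, beside 25.5% of all genes, led by Scarb1 (−0.75), Lrp1 (−0.71), Cd36 (−0.65) and Lipa (−0.56). After scaling Scarb1 fell (−0.43) and Npc2, the lysosomal cholesterol carrier, rose (0.44). From lanosterol to cholesterol Dhcr7 (−0.66), Nsdhl (−0.37) and Lbr (−0.34) fell, and from acetyl-CoA to squalene none passed, with Pmvk at 0.41 and Acat2 at −0.09. Of the LXR list Rxra (−0.55), Abca7 (−0.54), Lpcat3 (−0.51) and Nr1h2 (−0.47) fell, and of the oxysterol list Hsd3b7 (−0.49) fell. None of these 8 that fell passed after scaling, where Pmvk rose (0.73).

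Several of these high dose calls did not hold in every fit with 1 library left out. Of 10 fits with 1 library left out, Abca7 was lost in 7 (−0.60 to −0.39, adjusted p up to 0.139; all but those without LPS replicate 2 or 4 or high dose replicate 2), Lbr in 5 (without LPS replicate 2, 3 or 4 or high dose replicate 2 or 5) and Nsdhl in 2 (without LPS replicate 4 or high dose replicate 2). The count of 3 from lanosterol to cholesterol was then 1 to 4. Nsdhl (−0.33) and Lbr (−0.30) were also lost without the 7 low-Cxcl2 libraries. Endothelial and fibroblast markers were lower at the high dose as deposited: the endothelial genes summed to 1227.03 to 1615.44 TPM there, against 1706.96 to 2510.63 TPM in LPS lungs, and the fibroblast genes to 232.49 to 311.88 TPM, against 397.15 to 718.24 TPM. Both overlapped after scaling, and their part in the falls was not tested.

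At the low dose 4 genes of SREBP control fell against LPS as deposited: Srebf1 (−0.64), Srebf2 (−0.61), Scap (−0.54) and Mbtps1 (−0.52), beside 9.38% of all genes. With 1 library left out, Mbtps1 was lost in 7 of 10 fits (adjusted p between 0.0719 and 0.11), all but those without LPS replicate 1 or 2 or low dose replicate 1, and Scap in 3, without LPS replicate 4 or 5 or low dose replicate 2, so that 2 to 4 of the list fell. Of the uptake genes Lrp1 (−0.78) fell. Neither synthesis list had a gene that passed, with Pmvk at −0.17, Acat2 at −0.18, Ebp at −0.03 and Msmo1 at −0.17. Apoe (0.22) and Pltp (−0.08), the most abundant of the LXR list, and Ch25h (0.02) and Hsd3b7 (−0.19) of the oxysterol list did not pass. None of the 6 lists had a gene that passed at the low dose after scaling. At the mid dose none passed on either scale; the 2 most abundant genes of each list had log2 differences as deposited of −0.24 (Ch25h) to 0.36 (Apoe).

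Likeness of pattern was measured as Pearson's r on scaled log2(TPM + 1) over the 24 libraries, among 15596 other genes, as a description. Libraries of one group are part of it, so r on deviations from the group means is also given. Hmgcs1 was most like Cyp51 (0.84; 0.84 on deviations), then Sqle (0.84; 0.86) and Fdft1 (0.79; 0.81). All are enzymes of sterol synthesis. Idi1 was most like the sterol oxidase gene Msmo1 (0.84; 0.90), then Chmp2b and Nlk, and Fdps was most like Mvk (0.83; 0.88), then Sftpa1 and Fabp5. The synthesis genes thus had other genes of the same pathway as their nearest pattern in 3 of 5 cases.

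Sqle was most like Homer2 (0.85; 0.75), then Hmgcs1 and Plpp2, and Lss was most like Rab34 (0.76; 0.74), then Trak1 (0.74; 0.70). Insig1 was less like the synthesis genes after scaling, with r between 0.04 and 0.38 to the 5 of them (−0.006 to 0.45 on deviations). This depended on the scaling: on TPM as deposited r was 0.16 with Fdps and 0.46 to 0.57 with the others. On scaled values Insig1 was most like A430108G06Rik (0.85; 0.85), Patj and Snx25. Abca1 was most like E030044B06Rik (0.87; 0.54), Fam162b and Pon1, and the falls of r on deviations show how much of that likeness lay between groups. Among the pathway lists Apoc1 was nearest to it (0.80, rank 29). Abcg1 was most like Kcna3 (0.87; 0.86), Hvcn1 and Pla2g15, and Lipa ranked 9 (0.81).

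Abca1 and Sqle ran in opposite directions. Of the 15596 genes compared with Sqle, Abca1 had the lowest r, −0.78 over 24 libraries, with Spearman's rho of −0.77. It was −0.77 in the 20 challenged libraries alone, −0.74 on deviations from the group means and −0.74 without the 2 libraries farthest from the median of Sqle. This depended on the scaling: on TPM as deposited r was −0.53 over the 24 libraries and −0.16 in the 20 challenged ones. Abca1 and Abcg1, both exporters, had an r of −0.16 scaled and −0.09 as deposited.

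**Figure D5:**
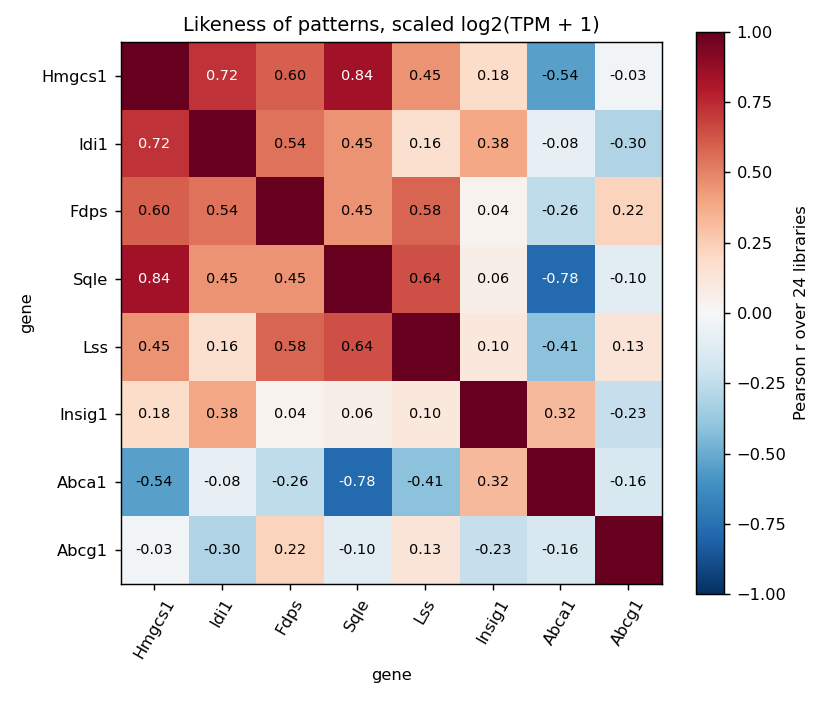
Pearson's r between each pair of the 8 genes over the 24 libraries, on scaled log2(TPM + 1), with genes on both axes and color from −1 (blue) to 1 (red). Hmgcs1 and Sqle are most alike at 0.84 and Sqle and Abca1 most opposed at −0.78.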

How the data were processed

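Lung RNA depleted of ribosomal RNA was sequenced as paired 150-base reads, per the labels' protocols. The authors deposited 1 table of TPM per gene for 24 libraries; HISAT2, StringTie, RSEM, DESeq2 and GRCm39 are named, without versions, in the submitters' processing notes. Of 78298 genes, 21883 have no symbol. Genes that reached 1 TPM in 4 or more libraries were fitted with limma 3.58.1 (R 4.3.3; trend and robust prior, two-sided) on log2(TPM + 1), with 1 mean per group and Benjamini-Hochberg adjustment over all 17823 genes. The fit was checked on simulated data. Descriptions used Python 3.11.15, numpy 2.4.6 and pandas 2.3.3. The 8 genes, the lists and the comparisons were chosen with earlier results of these data known. In each list the 4 largest changes that passed were named, or the 2 most abundant genes where none passed; some genes of these pathways are not reported here, and counts and medians of the lists are without them. Others named in counts of 5 or fewer and the ratios were chosen after their values were seen. Alternatives were 2 scalings, 2 filters, pseudocounts of 0.1 and 0.5, the replicate block, the compared groups alone, sample weights, a fold limit, each library left out, and, added after seeing the data, the 7 low-Cxcl2 libraries left out and scaled fits with a block or a library left out. Replicate numbers were not used as pairs in the main fit. Of 46 same-numbered pairs of libraries, 20 had a correlation of deviations over 0.1. The median was 0.06, against −0.01 for other pairs, and the highest was 0.65. These values cannot exclude a structure shared by replicate number.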

Additional observations from a re-analysis of the deposited data

How the results depend on the processing

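Values of 0.1 and 0.5 as pseudocount and a filter at a mean TPM of 1 left all calls of the 8 genes as they were. The count of the 8 genes called for LPS against control (4) was 2 after median-of-ratios scaling, 1 after upper-quartile scaling, 8 with sample weights and 1 with a fold limit (absolute log2 fold change of 1 or more). Without the 7 low-Cxcl2 libraries that count was 6. Not every smaller change of a count is listed here. For the low dose against LPS (1) it was 0 with either scaling, with no filter, with the compared groups alone, with the fold limit and without the 7 low-Cxcl2 libraries. For the high dose against LPS (0) it was 2 with sample weights. For the low dose against control (5) it was 2 and 1 with the scalings in that order, 3 with no filter, 3 with the replicate block and 1 with the fold limit. For the mid dose against control (6) it was 1 with either scaling, 2 with the fold limit and 7 without the low-Cxcl2 libraries. For the high dose against control (3) it was 2 and 1 with the scalings in that order, 7 with sample weights, 0 with the fold limit and 5 without the low-Cxcl2 libraries. For any dose against LPS (2) it was 0 and 1 with the scalings, 1 with no filter, 1 with the compared groups alone, 4 with sample weights and 1 without the low-Cxcl2 libraries. The replicate block changed no other count. Whether replicate numbers pair the libraries was left undecided. Leaving out 1 library each gave 4 to 7 genes for LPS, 3 to 7, 5 to 6 and 3 for the low, mid and high dose against control, 0 to 1, 0 and 0 to 2 for the doses against LPS, 1 to 3 for any dose and 0 for the trend.

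Among calls as deposited, the direction turned under a scaling in 14 cases; differences that had not passed also turned, as for Idi1, Fdps and Insig1 in LPS lungs. After median-of-ratios scaling the low dose against control had Lss at −0.0201, the mid dose had Fdps at −0.0401 and Insig1 at −0.18, and LPS had Ggps1 at −0.0179 and Fdft1 at −0.0355. After upper-quartile scaling the low dose had Lss at −0.11, Hmgcs1 at −0.0522 and Fdps at −0.0865, the mid dose had Fdps at −0.14 and Insig1 at −0.28, and LPS had Lss at −0.00069, Ggps1 at −0.10, Fdft1 at −0.12 and Mvk at −0.0375. The shift of all genes with the scaling (0.55 against 0.02 for LPS over control) is built into these settings. With TPM and no counts, the depth behind low values such as Abca1 is unknown.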
